A study of Mus musculus with 17 samples.

Results

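The genes described here encode the transforming growth factor beta (TGF-β) ligands Tgfb1, Tgfb2 and Tgfb3, the activin subunit Inhba, the receptors Tgfbr1, Tgfbr2 and Tgfbr3, the latent TGF-β binding proteins Ltbp1 and Ltbp2, and the TGF-β-induced matrix protein Tgfbi. They were chosen by name, with earlier results of these data known. They are 10 of the 31647 features in the heart count table, where each has a feature of its own. RNA came from hearts of male wild-type C57BL/6J mice, 8 to 11 weeks old at surgery and examined 5 days afterwards (5d post-MI). In 9 mice a permanent ligature had been placed on the left anterior descending artery (LAD) and the infarct zone (IZ) of the left ventricle was taken. In 8 sham-operated mice the left ventricle was taken. No genetic change or drug distinguished the groups, and each library came from 1 animal. All values are from massive analysis of cDNA ends, which counts 3′ ends of polyadenylated transcripts with molecular identifiers. At a later time after infarction than that of these hearts, the study examined Tgfbr2 as a possible cardiac receptor for Gdf15 from the kidney. It measured TGF-β as a fibrosis marker at that later time and in cultured human cardiac fibroblasts.

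TGF-β is secreted in a latent form, held by its own propeptide and tethered to the matrix through latent binding proteins until integrins or proteases release it. The freed ligand is bound by the type II receptor TGFBR2, which phosphorylates the type I receptor TGFBR1, and TGFBR1 in turn phosphorylates SMAD2 and SMAD3. In healing myocardium the pathway is known for driving fibroblasts towards myofibroblasts and for collagen deposition. Activin A, a dimer of the Inhba product, signals through its own receptors to the same SMAD proteins.

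Of the ligands, the sequences before the start sites of Tgfb1, Tgfb2 and Inhba are shown because all of these genes rose in the IZ and their promoters differ in base composition. Each window holds the 250 bases before the start site, from RefSeq on GRCm38.p6, in the direction of transcription. The Tgfb1 window is chr7:25686752-25687001 on the + strand, the Tgfb2 window chr1:186705990-186706239 on the - strand and the Inhba window chr13:16011601-16011850 on the + strand. Capitals mark GC boxes (GGGCGG, or CCGCCC on the other strand) in Tgfb1 and the letters TATAAA in Tgfb2 and Inhba.
Tgfb1: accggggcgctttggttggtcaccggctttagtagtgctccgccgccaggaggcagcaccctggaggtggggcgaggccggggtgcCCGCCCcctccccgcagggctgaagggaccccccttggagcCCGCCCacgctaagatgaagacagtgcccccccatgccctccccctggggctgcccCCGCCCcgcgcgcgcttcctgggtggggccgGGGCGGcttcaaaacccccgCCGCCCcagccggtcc
Tgfb2: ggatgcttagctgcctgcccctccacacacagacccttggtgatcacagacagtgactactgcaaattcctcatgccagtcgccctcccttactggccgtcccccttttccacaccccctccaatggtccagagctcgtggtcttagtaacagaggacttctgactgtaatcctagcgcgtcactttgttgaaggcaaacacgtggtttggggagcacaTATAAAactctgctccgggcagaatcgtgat
Inhba: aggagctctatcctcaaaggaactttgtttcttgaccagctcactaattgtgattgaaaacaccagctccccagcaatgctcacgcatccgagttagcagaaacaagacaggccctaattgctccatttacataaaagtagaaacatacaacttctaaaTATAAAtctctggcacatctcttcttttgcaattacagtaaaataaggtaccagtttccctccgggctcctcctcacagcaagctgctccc

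The Tgfb1 window was 75.2% G and C, held 21 CpG dinucleotides and 5 GC boxes, and had no TATAAA. The Tgfb2 window was 53.6% G and C with 8 CpG dinucleotides and a TATAAA at -31 from the start site, where a TATA box usually lies. The Inhba window was 43.2% G and C with 3 CpG dinucleotides and a TATAAA at -91, farther from the start site than a TATA box usually lies. The median over 32851 RefSeq mouse promoters of this length was 52.4% G and C and 6 CpG dinucleotides. TATAAA was found on either strand in 12.4% of those promoters and GGGCGG in 32.7%. Promoters were matched for 8 of the 10 genes, in 10 windows, the exceptions being Tgfb3 and Tgfbr3. None of the 10 windows held the AP-1 motif TGANTCA, found in 6.75% of all promoters, the Smad palindrome GTCTAGAC, found in 0.167%, or the TEAD motif CATTCC, found in 12.6%. The Smad motif CAGACA, found in 17.1%, was in the Tgfb2 window and in 1 of the 2 windows each of Tgfbr1 and Ltbp1. A match is a stretch of letters and no evidence of binding.

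The libraries held 1237675 to 4738307 counts. IZ replicate 1 stood apart from the other IZ libraries. Its 6 cardiomyocyte markers summed to 23851 CPM (counts scaled to a common library size after TMM normalisation), against 2440 to 5713 CPM in the other 8 IZ libraries and 51151 to 64479 CPM in sham. Cardiomyocyte markers were thus present in every library, as the label of cardiac tissue implies. The groups differed widely, with 69.5% of 12301 tested genes past an adjusted p of 0.05 (edgeR's quasi-likelihood test, Benjamini-Hochberg), 36.3% higher and 33.1% lower in the IZ. In tissue libraries such as these, fewer cells of a type and less RNA per cell cannot be told apart.

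All 10 genes passed the filter on low counts, 8 were called higher and 2 lower in the IZ, against 36.3% and 33.1% of all tested genes. Without IZ replicate 1 the counts were again 8 and 2. The median log2 fold change of the 10, which were chosen with earlier results known, was 1.73, beside 0.05 over all genes tested. CPM ranges of the groups did not overlap for 9 of the 10, as for 33.1% of all tested genes. Tgfb1, Tgfb2, Tgfb3, Inhba, Tgfbr1, Tgfbr2, Ltbp2 and Tgfbi were upregulated in the IZ, by 1.2 (Tgfbr2) to 4.61 (Ltbp2) on the log2 scale. Tgfbr3 was downregulated, and Ltbp1 was the only member with overlapping groups.

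**Figure D1:**
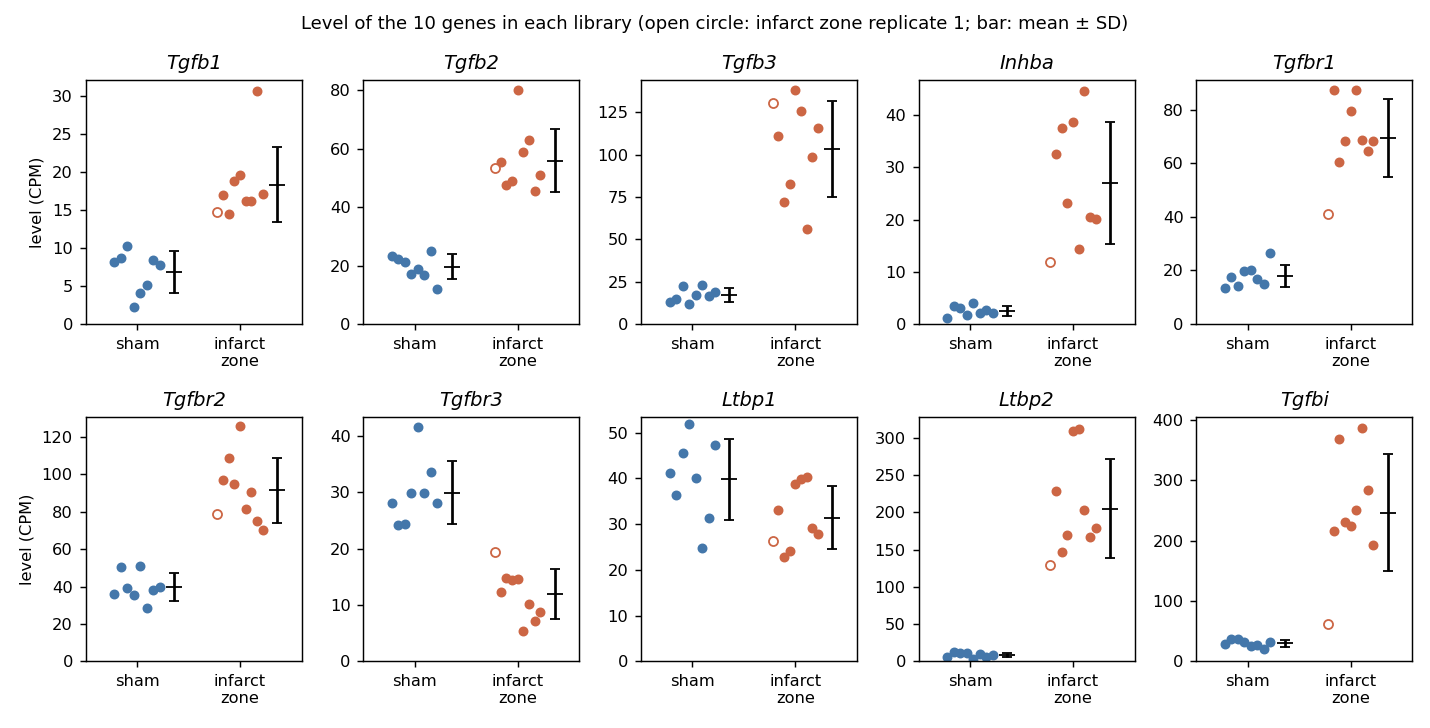
Level of each of the 10 genes in CPM (vertical axes, each from 0) in 8 sham and 9 infarct zone libraries, 1 point per library, with the mean ± SD of each group as a bar and infarct zone replicate 1 as an open circle. The groups are apart in all panels but Ltbp1, infarct zone points are the lower ones only for Tgfbr3, and the open circle is the lowest infarct zone point for Inhba, Tgfbr1, Ltbp2 and Tgfbi and the highest for Tgfbr3.

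Among the ligands, Tgfb3 showed the highest level in the IZ and Inhba the largest rise. Tgfb1 (ENSMUSG00000002603, chr7:25687002-25705077), the isoform best known from fibrosis, had sham values of 2.21, 7.92 and 10.2 CPM (lowest, median and highest library) and IZ values of 14.5, 17 and 30.7 CPM. Every IZ library lay above every sham library, although sham libraries held only 4 to 22 Tgfb1 counts each. The means were 6.82 ± 2.72 CPM (SD, n = 8) and 18.3 ± 4.94 CPM (SD, n = 9), and the log2 fold change was 1.41 ± 0.22 (SE, adjusted p = 6.14e-06, edgeR's quasi-likelihood test).

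Tgfb2 (ENSMUSG00000039239, chr1:186622792-186705989), an isoform required for heart valve development, had sham values of 12.1, 20.1 and 25.2 CPM and IZ values of 45.5, 53.5 and 80.2 CPM, in the same order of lowest, median and highest. The groups were apart, with IZ replicate 5 well above the other IZ libraries. The means were 19.6 ± 4.22 CPM (SD, n = 8) and 56.0 ± 10.7 CPM (SD, n = 9), with a log2 fold change of 1.5 ± 0.14 (SE, adjusted p = 3.51e-09, edgeR). Tgfb1 and Tgfb2 thus rose by amounts that lie within 1 SE of each other.

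Tgfb3 (ENSMUSG00000021253, chr12:86056745-86079041), the isoform needed for palate fusion, had sham values of 11.6, 16.9 and 23.3 CPM and IZ values of 55.9, 111 and 138 CPM. The lowest IZ library, replicate 7, still lay above the highest sham library. The means of 17.2 ± 4.24 CPM (SD, n = 8) and 103 ± 28.2 CPM (SD, n = 9) gave a log2 fold change of 2.59 ± 0.19 (SE, adjusted p = 4.19e-11, edgeR). Gm48008, a transcript on the opposite strand that shares exon bases with Tgfb3, had 59 counts in all libraries together against 3511 for Tgfb3.

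Inhba (ENSMUSG00000041324, chr13:16011851-16031621) was barely detected in sham, with 2 to 8 counts per library. Sham values were 1.08, 2.44 and 4.10 CPM and IZ values 11.8, 23.1 and 44.6 CPM. All IZ libraries were above all sham libraries, and IZ replicates 1 and 6 were the lowest of their group. The means of 2.55 ± 0.97 CPM (SD, n = 8) and 27.0 ± 11.6 CPM (SD, n = 9) corresponded to a log2 fold change of 3.39 ± 0.32 (SE, adjusted p = 2.51e-09, edgeR). Without IZ replicate 1 the log2 fold change was 3.45.

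The receptors moved in opposite directions. Tgfbr1 (ENSMUSG00000007613, chr4:47353222-47414931), the type I receptor kinase, had sham values of 13.6, 17.1 and 26.4 CPM and IZ values of 40.9, 68.3 and 87.5 CPM, the lowest of these in IZ replicate 1. The groups were apart in all libraries. The log2 fold change was 1.95 ± 0.16 (SE, adjusted p = 2.41e-10, edgeR), from means of 17.9 ± 4.22 CPM (SD, n = 8) and 69.5 ± 14.5 CPM (SD, n = 9).

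Tgfbr2 (ENSMUSG00000032440, chr9:116084293-116175360), the type II receptor that binds the ligand first, had sham values of 28.4, 38.7 and 50.8 CPM and IZ values of 70.3, 90.2 and 126 CPM. It was the most abundant of the receptor transcripts in both groups, and the groups did not overlap. The means were 39.7 ± 7.58 CPM (SD, n = 8) and 91.4 ± 17.6 CPM (SD, n = 9), with a log2 fold change of 1.2 ± 0.13 (SE, adjusted p = 3.62e-08, edgeR), the smallest among the 8 upregulated members. Gdf15 encodes a stress-induced cytokine of the superfamily, which the study paired with Tgfbr2 from kidney data of a later time. In these IZ libraries Gdf15 itself rose from 1.97 ± 1.88 CPM (SD, n = 8) to 17.1 ± 4.30 CPM (SD, n = 9), a log2 fold change of 3.17 ± 0.37 (SE, adjusted p = 6.87e-08, edgeR). Sham libraries held only 0 to 9 Gdf15 counts each, and their mean was near the average sham floor of 1.77 CPM for 3 counts.

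Tgfbr3 (ENSMUSG00000029287, chr5:107106570-107289629) encodes betaglycan, a membrane proteoglycan that presents ligand to the signalling receptors and has no kinase. Sham values were 24.2, 29.0 and 41.5 CPM and IZ values 5.40, 12.4 and 19.4 CPM, the highest IZ value being that of replicate 1. Every IZ library was below every sham library. The means fell from 29.9 ± 5.59 CPM (SD, n = 8) to 11.9 ± 4.43 CPM (SD, n = 9), a log2 fold change of -1.31 ± 0.19 (SE, adjusted p = 2.17e-06, edgeR). Without IZ replicate 1 it was -1.44. Scaled by total counts alone, it was -0.25 with an adjusted p of 0.204, so the call was lost. Under that scaling the median of all tested genes moved from 0.05 to 1.13, so Tgfbr3 lay below that median on either scale.

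The latent binders differed most among themselves. Ltbp2 (ENSMUSG00000002020, chr12:84783212-84876532), which is tied to microfibrils and, unlike its relatives, does not bind latent TGF-β, had sham values of 3.08, 9.13 and 12.1 CPM and IZ values of 129, 178 and 312 CPM. The lowest IZ library, replicate 1, was many times the highest sham library. The means of 8.58 ± 3.33 CPM (SD, n = 8) and 205 ± 66.6 CPM (SD, n = 9) differed 23.9-fold, and the fitted log2 fold change was 4.61 ± 0.25 (SE, adjusted p = 6.52e-13, edgeR). The antisense transcript D030025P21Rik had 41 counts in all libraries, against 6557 for Ltbp2.

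Ltbp1 (ENSMUSG00000001870, chr17:75005568-75392512), the classic partner of the latent TGF-β complex, had sham values of 24.8, 40.6 and 51.9 CPM and IZ values of 22.9, 29.2 and 40.3 CPM. The groups overlapped, and 2 of 9 IZ libraries lay below all sham libraries. The means were 39.8 ± 8.85 CPM (SD, n = 8) and 31.3 ± 6.88 CPM (SD, n = 9), and the log2 fold change of -0.36 ± 0.15 (SE) passed the threshold narrowly (adjusted p = 0.0394, edgeR). The call did not survive the omission of sham replicate 1, 3, 4 or 8 or of IZ replicate 2, 3, 4, 8 or 9, with adjusted p up to 0.105 and log2 fold changes of -0.44 to -0.28 over all omissions. With total counts alone the direction turned to 0.72. The level of Ltbp1 is therefore given without a firm direction.

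Tgfbi (ENSMUSG00000035493, chr13:56609523-56639562) encodes a secreted, integrin-binding matrix protein named for its induction by TGF-β. Its sham values were 19.8, 29.8 and 37.6 CPM and its IZ values 61.4, 231 and 387 CPM. The lowest IZ value was that of replicate 1, and the other 8 IZ libraries lay between 193 and 387 CPM. The means of 29.9 ± 5.88 CPM (SD, n = 8) and 247 ± 96.7 CPM (SD, n = 9) gave a log2 fold change of 3.05 ± 0.26 (SE, adjusted p = 4.27e-10, edgeR), or 3.15 without IZ replicate 1.

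**Figure D2:**
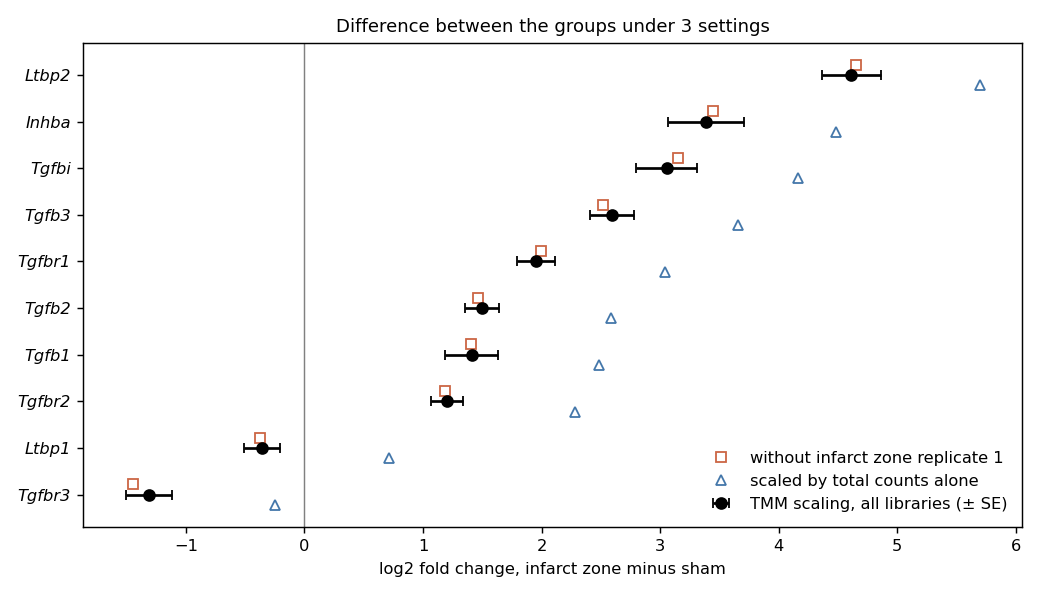
Log2 fold change (infarct zone minus sham, horizontal axis) of the 10 genes under TMM scaling with all libraries (filled circles, ± SE), without infarct zone replicate 1 (squares) and scaled by total counts alone (triangles). The squares stay close to the circles, whereas the triangles lie about 1 unit to the right for every gene and bring Ltbp1 to the other side of 0, from -0.36 to 0.72.

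Because each molecule is counted once at its 3′ end, CPM values were compared between genes without a correction for length. In sham the order of mean levels was Ltbp1, Tgfbr2, Tgfbr3, Tgfbi, Tgfb2, Tgfbr1, Tgfb3, Ltbp2, Tgfb1 and Inhba, and no neighbours in this order were separated beyond the spread of the libraries. In the IZ the order was Tgfbi, Ltbp2, Tgfb3, Tgfbr2, Tgfbr1, Tgfb2, Ltbp1, Inhba, Tgfb1 and Tgfbr3. Only Tgfb2 and Ltbp1 were neighbours without overlap there. Tgfbr3 went from the third place to the last and Ltbp2 from the eighth to the second. The spread between IZ animals was widest for Inhba, with a coefficient of variation of 43.0%, or 37.5% without IZ replicate 1. For Tgfbi it was 39.2% with that library and 26.7% without it, and for Tgfbr1 20.8% and 14.2%. The ranking of the other members by this spread thus depended on IZ replicate 1.

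Shares of counts within a family do not depend on how libraries are scaled, so the make-up of each family was compared as well. Differences in mean share were tested by exact two-sided permutation over 24310 assignments and adjusted over 10 shares. Among the TGF-β ligands, Tgfb3 rose from 39.7 ± 8.04% (SD, n = 8) to 57.4 ± 7.20% (SD, n = 9) of the counts (adjusted exact p = 0.00094), and 8 of 9 IZ libraries were above all sham libraries. Tgfb2 went down from 45.2 ± 8.35% (SD, n = 8), the largest ligand share in sham, to 32.0 ± 6.32% (SD, n = 9, adjusted exact p = 0.00483), although its level rose. Tgfb1 made up 15.2 ± 4.92% (SD, n = 8) and 10.6 ± 3.16% (SD, n = 9), a difference (adjusted exact p = 0.0373) that missed the threshold on omission of any 1 of sham replicates 1, 2, 3, 7 and 8 or IZ replicates 1, 2, 5, 6 and 9, with adjusted exact p up to 0.0719. The ligand family held 56 to 1333 counts per library.

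In the receptor family, Tgfbr1 rose from 20.4 ± 3.85% (SD, n = 8) to 40.3 ± 6.68% (SD, n = 9, adjusted exact p = 0.000137). Tgfbr3 fell from 34.3 ± 4.72% (SD, n = 8) to 7.0 ± 3.02% (SD, n = 9, adjusted exact p = 0.000103). The groups did not overlap for either gene, so betaglycan, which in sham averaged the second largest share, was the least common of the family in every IZ library. Tgfbr2 changed less, from 45.3 ± 5.32% (SD, n = 8) to 52.7 ± 4.33% (SD, n = 9, adjusted exact p = 0.00832), and only 3 of 9 IZ libraries exceeded all sham libraries.

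The latent binder family was taken with Ltbp3 and Ltbp4, relatives that complete it. Ltbp4, whose product binds latent TGF-β1 with low efficiency, made up 67.8 ± 4.30% (SD, n = 8) of the family in sham and 28.6 ± 8.45% (SD, n = 9) in the IZ (adjusted exact p = 0.000137), with 48.7% in IZ replicate 1. Ltbp2 rose from 3.13 ± 1.14% (SD, n = 8) to 38.9 ± 6.38% (SD, n = 9, adjusted exact p = 0.000103). Ltbp3 rose from 14.5 ± 2.45% (SD, n = 8) to 26.4 ± 2.95% (SD, n = 9) and Ltbp1 fell from 14.6 ± 3.35% (SD, n = 8) to 6.08 ± 1.04% (SD, n = 9), both with an adjusted exact p of 0.000103. The groups were apart for all 4 genes. Because a rise in the share of 1 gene lowers those of the others, a smaller Ltbp1 share does not by itself show a lower Ltbp1 level. In absolute terms Ltbp3 rose by 1.77 ± 0.16 on the log2 scale (SE, adjusted p = 2.10e-09, edgeR). Ltbp4 had 185 ± 21.8 CPM (SD, n = 8) and 151 ± 58.0 CPM (SD, n = 9), with a log2 fold change of -0.30 ± 0.19 (SE) that did not pass the test (adjusted p = 0.16, edgeR). Without IZ replicate 1 it was -0.47 and passed (adjusted p = 0.0061, edgeR).

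**Figure D3:**
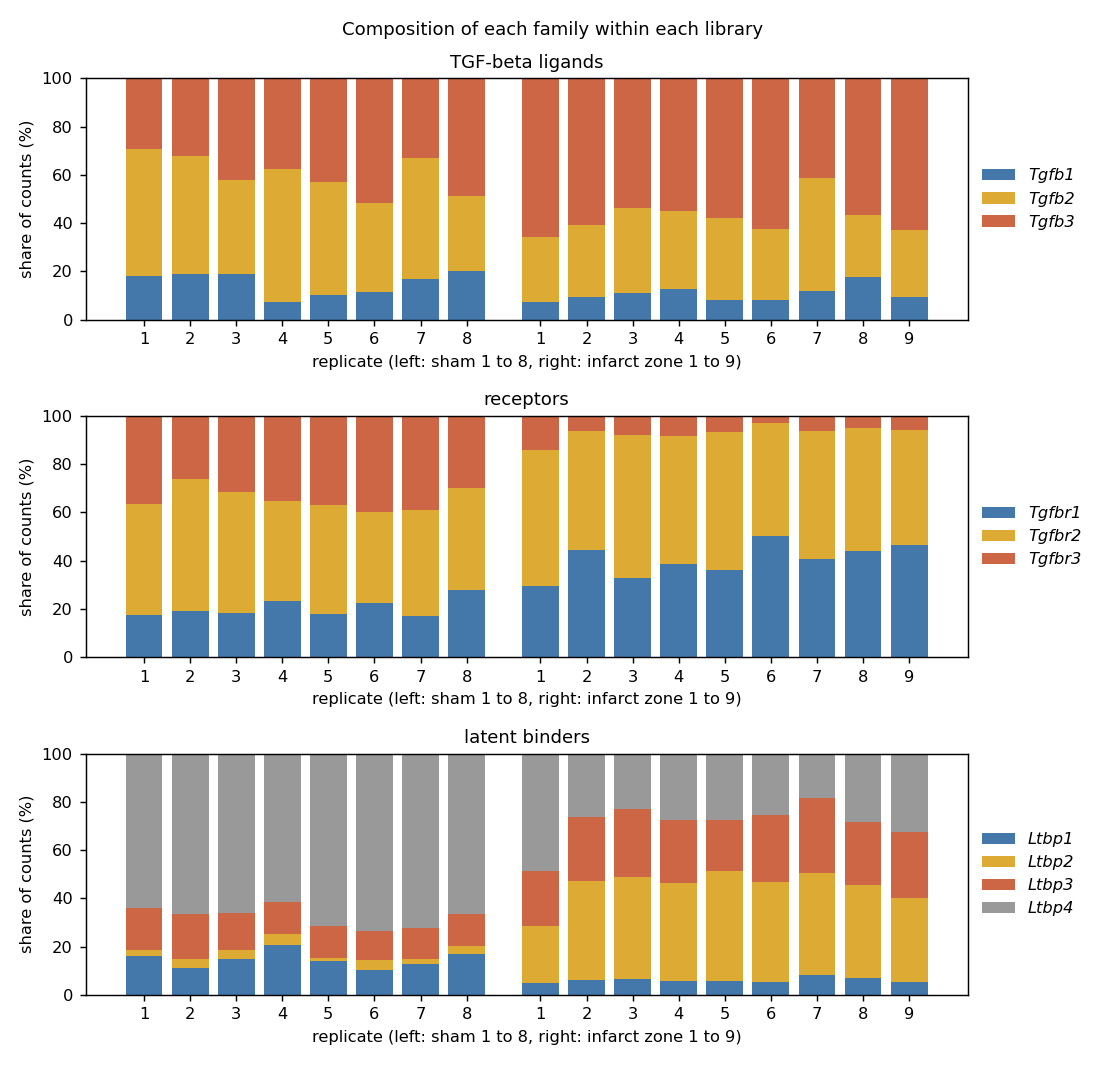
Share of counts (%, vertical axis from 0 to 100) of each gene within the TGF-β ligands, the receptors and the latent binders, as stacked bars, 1 bar per library, with sham replicates 1 to 8 on the left and infarct zone replicates 1 to 9 on the right. Tgfb3, Tgfbr1 and Ltbp2 take larger shares in the infarct zone, Tgfbr3 shrinks to a thin band of 3.09 to 13.9%, and Ltbp4 falls from 67.8% to 28.6% on average.

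Whether the members varied together between infarcted animals was examined within the 9 IZ libraries over all 45 pairs. No pair passed the threshold by Pearson's r after adjustment, and 6 had an unadjusted exact p under 0.05. The closest pair was Tgfbr1 and Ltbp2, with r = 0.846 (exact permutation p = 0.00128, adjusted 0.0574) and Spearman's rho = 0.95 (exact permutation p = 0.000353, adjusted 0.0159, the only pair past the threshold by rank). Without the 2 libraries farthest from the median of Tgfbr1, r was 0.961, and without IZ replicate 1 it was 0.876. Ltbp1 and Ltbp2 had r = 0.837 (exact permutation p = 0.00571, adjusted 0.126, rho = 0.783, exact permutation p = 0.0172, adjusted 0.233), and 0.884 without the 2 farthest libraries. Tgfb2 had r = 0.773 with Ltbp1 (exact permutation p = 0.00839, adjusted 0.126) and 0.742 with Ltbp2 (exact permutation p = 0.0191, adjusted 0.172). Without the 2 farthest libraries these were 0.742 and 0.678. For Inhba and Tgfbr2 r was 0.702 (exact permutation p = 0.0362, adjusted 0.271), and 0.832 without the 2 farthest libraries. Inhba and Tgfbi had r = 0.699 (exact permutation p = 0.0173, adjusted 0.172, rho = 0.567, exact permutation p = 0.121, adjusted 0.598), which dropped to 0.229 without the 2 farthest libraries and so rests on them. The count of pairs past the threshold was 6 with total counts alone.

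The log2 CPM of each ligand over the 17 libraries was set against that of 9315 genes averaging 10 CPM or more. The 17 points share the difference between the groups, so the values describe likeness only. Tgfb3 was closest to Postn (r = 0.99), which encodes the myofibroblast matrix protein periostin, then to Bgn and Gxylt2 (both 0.98). Within the 9 IZ libraries these were 0.87, 0.71 and 0.87. Inhba was closest to Slc16a3, a lactate transporter, Ssr1 and Maged1 (all 0.98), with 0.88, 0.89 and 0.90 within the IZ. Tgfb2 was closest to the Wnt receptor gene Fzd2 (0.98), Neurl3 and Foxp1 (both 0.96), with 0.66, 0.49 and 0.63 within the IZ. Tgfb1 was closest to Abhd12 (0.95), Apobec1 and Nedd9 (both 0.93), with 0.76, 0.53 and 0.18 within the IZ.

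Other genes of the pathway were read from 6 lists by role, also chosen with earlier results of these data known. The lists held 63 genes in all, of which 58 were tested, 43 were higher, 6 lower and 9 not called. The called genes were 84.5% of those tested (74.1% higher and 10.3% lower), beside 69.5% of all tested genes (36.3% higher and 33.1% lower). Of 17 genes of the latent complex, its carriers and its activation, 15 were tested, 13 were higher and 1 lower (86.7% and 6.67%, beside 36.3% and 33.1% of all tested genes), with a median log2 fold change of 1.73. The highest was Thbs1, encoding the TGF-β activator thrombospondin 1, which rose from 20.2 ± 7.68 CPM (SD, n = 8) to 255 ± 114 CPM (SD, n = 9), a log2 fold change of 3.67 ± 0.29 (SE, adjusted p = 1.32e-10, edgeR). The lowest was Itgb6, a subunit of the integrin αvβ6 that activates latent TGF-β, with 13.4 ± 3.94 CPM (SD, n = 8) in sham and 1.54 ± 1.14 CPM (SD, n = 9) in the IZ, a log2 fold change of -3.13 ± 0.32 (SE, adjusted p = 1.14e-08, edgeR). IZ libraries held only 0 to 13 Itgb6 counts each, and their mean was near the average IZ floor of 1.05 CPM for 3 counts. The 4 proteoglycan binders, which sequester TGF-β in the matrix, included 3 that rose (75%, beside 36.3%). Aspn (asporin) was highest at 3.03 ± 0.20 on the log2 scale (SE, adjusted p = 1.17e-11, edgeR), and Dcn (decorin) was lowest at 0.04 ± 0.15 (SE, adjusted p = 0.84, edgeR).

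Of 11 genes for activins, growth differentiation factors, their receptors and inhibitors, 9 were tested, 5 were higher and 3 lower (55.6% and 33.3%, beside 36.3% and 33.1% of all tested genes, so the share lower was that of the background). Gdf15 was the highest. Inha, encoding the inhibin α subunit, which pairs with the Inhba product to form inhibin in place of activin, was the lowest, with 10.1 ± 1.87 CPM (SD, n = 8) in sham, 3.66 ± 1.25 CPM (SD, n = 9) in the IZ and a log2 fold change of -1.47 ± 0.22 (SE, adjusted p = 3.86e-06, edgeR). Scaled by total counts alone it was -0.40 with an adjusted p of 0.107. Mstn (myostatin) and the receptor gene Acvr1c had at most 3 counts in every library of both groups. Of 5 co-receptors and decoys, 3 were higher and none lower (60% higher, beside 36.3% of all tested genes). Cd109, a co-receptor that promotes receptor degradation, was the highest at 3.34 ± 0.27 on the log2 scale (SE, adjusted p = 2.27e-10, edgeR), from only 1 to 9 counts in each sham library. Eng (endoglin) was the lowest at -0.20 ± 0.12 (SE, adjusted p = 0.143, edgeR), which turned to 0.86 with total counts alone.

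Of 14 Smads and their regulators, 13 were tested, 7 were higher and 2 lower (53.8% and 15.4%, beside 36.3% and 33.1% of all tested genes). The share called in either direction, 69.2%, was close to the 69.5% of all tested genes, and the median log2 fold change of 0.31 was the smallest of the 6 lists. Smad2, encoding a SMAD that the receptors phosphorylate, rose by 0.81 ± 0.21 on the log2 scale (SE, adjusted p = 0.00139, edgeR). Its relative Smad3 had 0.56 ± 0.24 (SE, adjusted p = 0.0432, edgeR), a call that ended on omission of sham replicate 1, 2, 3, 6 or 7 or IZ replicate 1, 7 or 9, with log2 fold changes of 0.44 to 0.67 over all omissions and an adjusted p up to 0.103, and that DESeq2 did not make (adjusted p = 0.0564). The common partner Smad4 had 0.31 ± 0.14 (SE, adjusted p = 0.0561, edgeR) and passed on omission of sham replicate 6 or 7 or IZ replicate 3, 6, 7 or 8, with values of 0.24 to 0.38 over all omissions. The inhibitory Smad7, a direct target of the pathway, had 25.2 ± 3.96 CPM (SD, n = 8) in sham and 22.8 ± 5.23 CPM (SD, n = 9) in the IZ, a log2 fold change of -0.13 ± 0.14 (SE, adjusted p = 0.415, edgeR) that became 0.94 with total counts alone. The repressor gene Tgif1 was the highest of the list at 2.85 ± 0.23 (SE, adjusted p = 2.65e-10, edgeR). Zfyve9, encoding the SMAD anchor SARA, was the lowest at -0.92 ± 0.27 (SE, adjusted p = 0.00386, edgeR), or 0.13 with total counts alone.

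The 12 genes listed as known targets of the pathway were all higher in the IZ, against 36.3% of all tested genes. For each of them all 9 IZ libraries lay above all sham libraries. Groups without overlap, in either direction, were found for 33.1% of all tested genes. The list is a selection, since Smad7, also a known target but kept with the Smads, did not pass the test. Smads and their regulators called higher were 7, among them Pmepa1 (log2 fold change 2.46) and Skil (1.43), and 2 were called lower. The median log2 fold change of the 12 listed targets was 3.61. The matrix genes Col1a1 (4.0), Col1a2 (3.79), Col3a1 (3.42), Fn1 (4.25) and Postn (3.95), the contractile genes Acta2 (2.28) and Tagln (2.79), the growth factor gene Ccn2 (3.42) and the protease inhibitor gene Timp1 (5.05) are listed with their log2 fold changes. Timp1 went from 13.2 ± 2.75 CPM (SD, n = 8) to 434 ± 268 CPM (SD, n = 9), the largest rise of the list. Of the cell cycle inhibitors, Cdkn1a rose by 1.55 ± 0.18 on the log2 scale (SE, adjusted p = 1.02e-07, edgeR). Cdkn2b had no more than 2 counts in each of the sham libraries, and its IZ mean of 6.58 CPM was at least 3.71-fold higher than the mean sham floor of 3 counts per library.

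**Figure D4:**
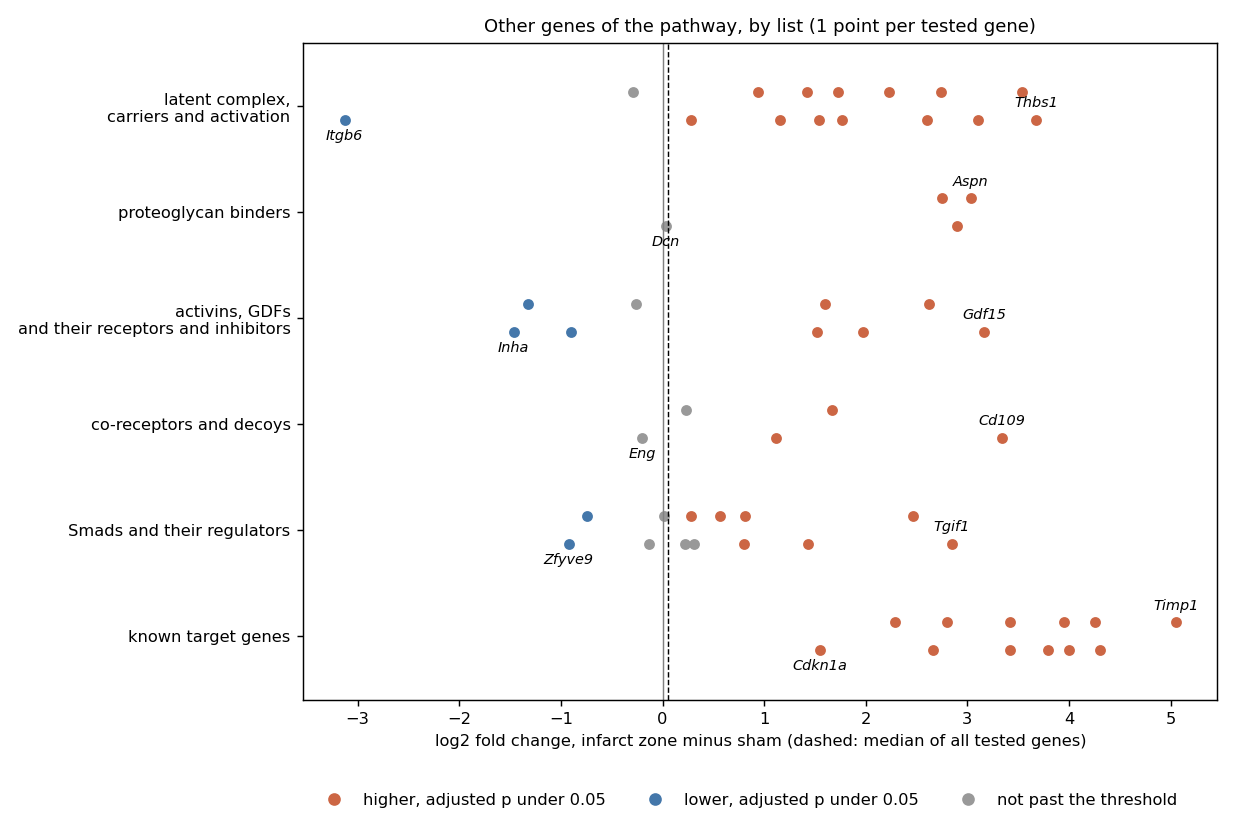
Log2 fold change (infarct zone minus sham, horizontal axis) of the 58 tested pathway genes in 6 lists by role, 1 point per gene, red for 43 called higher, blue for 6 called lower and grey for 9 not called, with the highest and lowest gene of each list named and the median of all tested genes as a dashed line. All points of the known target genes lie at 1.55 or above. Those of the Smads and their regulators run from -0.92 to 2.85, with a median of 0.31.

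Markers of several cell types in the tissue also differed between the groups, in both directions, and their part in the results was not tested. Over all tested genes, for comparison, 36.3% were called higher and 33.1% lower. All 6 cardiomyocyte markers fell, to summed levels given above. All 5 fibroblast markers rose, from sums of 188 to 348 CPM in sham to 538 to 860 CPM in the IZ. All 6 macrophage and monocyte markers rose, from 332 to 490 CPM to 1817 to 4955 CPM, the lowest IZ sum being that of replicate 1. That library was also lowest for Inhba, Tgfbr1, Ltbp2 and Tgfbi, but not for the other members. Its Tgfb3 level of 131 CPM lay above the IZ median of 111 CPM, and its Tgfbr3 level was the highest of the IZ. The 3 tested neutrophil markers of 4 rose, from sums of 3.14 to 12.2 CPM to 14.0 to 208 CPM. Of 5 endothelial markers, 4 did not pass the test and Kdr fell, with sums of 339 to 673 CPM and 251 to 451 CPM. Of 5 smooth muscle and pericyte markers, 2 rose and 3 fell, with sums of 343 to 553 CPM and 226 to 413 CPM. Lymphocyte markers had sums of at most 1.91 CPM in sham, where all 5 had no more than 3 counts per library, and of 1.02 to 8.82 CPM in the IZ. Of 4 epicardial markers 1 of 2 tested rose, with sums of 7.73 to 19.5 CPM and 7.18 to 113 CPM, and of 4 platelet markers the 1 tested rose, with sums of 27.5 to 48.4 CPM and 45.2 to 351 CPM. No adipocyte marker of 4 was tested, with sums up to 6.16 CPM in sham and 41.5 CPM in the IZ. Of 5 skeletal muscle markers, 1 of 2 tested rose, with sums up to 23.2 CPM and 17.6 CPM, and Myh4 had no count in any library.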

How the data were processed

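Left ventricle of 8 sham and infarct zone of 9 infarcted mice were compared. The authors prepared 3′ end libraries with molecular identifiers to remove PCR duplicates, mapped reads to mm10 and counted them per gene with HTSeq. The submitters' processing notes name Bowtie2, HTSeq, DESeq2 and bcl2fastq. The deposited table holds unnormalised counts. The annotation release, the use of strand and the treatment of reads with several locations are not given in the sources used here. Of 31647 features, 35 are merged groups of overlapping genes, kept for library sizes, and 31554 matched the GRCm38 annotation that gave symbols and positions. None of the 10 genes had another transcript matching its last 500 bases over at least 100 bases at 95% identity (BLAST 2.17.0).

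The 10 genes and all lists were chosen with earlier results of these data known. The test across genes was that of edgeR 4.0.16 under R 4.3.3 (filterByExpr with a minimum of 10 counts, TMM, two-sided quasi-likelihood F-test, no covariates, Benjamini-Hochberg adjustment over all genes tested, threshold 0.05). Standard errors came from the F statistic. CPM values use TMM-scaled library sizes and log2 CPM a prior count of 1. Shares were tested by exact permutation of their difference in means, and relations by exact permutation over 362880 pairings. Named were all 10 genes, the highest and lowest tested gene of each list and genes at or under 3 counts throughout a group, Ltbp3, Ltbp4, Gdf15, Smad2, Smad3, Smad4, Smad7, Pmepa1, Skil, the target genes, and the 3 genes most like each ligand. The result of 1 target gene is not reported here. Markers were summed per library. Results were computed again in edgeR with upper quartile scaling, with size factors from DESeq2 and with total counts alone, with DESeq2 1.42.0 (Wald test), without a filter, with a minimum mean of 50 counts, without mitochondrial features, with replicate numbers as a block, and leaving out 1 library at a time. For relations a prior count of 5 was also tried. The procedure was tested on simulated data.

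Total counts per library were 1820809 to 4257919 in sham and 1237675 to 4738307 in the IZ, with TMM factors of 0.616 to 0.729 and 1.05 to 1.53. Mitochondrially encoded features took 22.9 to 32.4% of the counts in sham, 19.5% in IZ replicate 1 and 4.22 to 6.78% in the other IZ libraries. A floor of 3 counts was on average 1.77 CPM in sham and 1.05 CPM in the IZ and covers counting error only. Pairs of libraries differed by a chi-square per degree of freedom of 2.46 to 310, so none was deposited in duplicate. The labels name no batch or date. Python 3.11.15 with NumPy 2.4.6, pandas 2.3.3, SciPy 1.17.1 and Matplotlib 3.10.9 was used for the other steps.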

Additional observations from a re-analysis of the deposited data

Results flagged for a closer look

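The 20 sets of values formed by the 10 genes in each group were examined for a library far from the rest, and 2 stood out, where chance alone gives about 1 in 20. Tgfb1 in IZ replicate 8 was the highest of its group at 30.7 CPM, with a gap of 0.684 of the group's range to the next library. Tgfb2 in IZ replicate 5 was the highest at 80.2 CPM, with a gap of 0.501 of the range.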

How the results depend on the processing

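The 8 upregulated members kept their direction and their call under all alternatives that tested them (Tgfb1 was not tested with a minimum mean of 50 counts). Of the members called lower, 2 in the reported fit, 1 was called with upper quartile scaling, with no filter or with the replicate block, none with total counts alone or a minimum mean of 50 counts (where Tgfbr3 was not tested), and 1 to 2 when 1 library was left out. The changes came from Ltbp1 and, with total counts alone, also from Tgfbr3. With the replicate block the Ltbp1 log2 fold change was -0.32 (adjusted p = 0.158) and 8 members were still higher. Replicate numbers did not pair the samples, with correlations of -0.22 to 0.13 between deviations of same-numbered libraries. Of the pathway genes called lower, 6 in the reported fit, 1 was called with total counts alone and 1 with a minimum mean of 50 counts. Under that minimum, Ppm1a was the only 1 of the 6 that was tested. With total counts alone the log2 fold changes turned to 0.72 for Ltbp1, 0.74 for Ltbp4, 0.81 for Acvr1b, 0.18 for Acvr2a, 0.86 for Eng, 0.94 for Smad7, 0.31 for Ppm1a and 0.13 for Zfyve9, as the median of all genes moved from 0.05 to 1.13 and 85.7% of calls, instead of 52.3%, were higher. The difference in the Tgfb1 share was -5.78 to -3.95 percentage points when 1 library was left out, against -4.63. The number of member pairs related in the IZ, 0 in the reported fit, was 6 with total counts alone, 1 with DESeq2 size factors and 0 to 1 when 1 library was left out. The causes were not tested. Among the members, depth limits Inhba, Ltbp2 and Tgfb1 most, with no more than 8, 21 and 22 counts in any sham library. The pathway genes Gdf15 and Cd109 also had few, with no more than 9 counts in any sham library.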
